A study of Hordeum vulgare with 2 samples.

Results

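The microRNAs miR167 and miR393 act on the auxin signalling pathway of plants, and the sites described here are all records in 2 barley degradome lists whose small RNA name is miR167 or miR393. They were 218 of the 17485 records listed for the cultivar ZD9 (176 of miR167 and 42 of miR393) and 471 of the 40424 records listed for the cultivar XZ153 (415 of miR167 and 56 of miR393). No read count, p-value or alignment was used to choose them. A degradome library captures RNA fragments that have lost their cap, so that a cut guided by a microRNA shows as reads starting at a single base of a transcript. The study sampled shoots of hydroponic barley seedlings of both cultivars, in a series on the response to low potassium, with 1 degradome library from ZD9 and 1 from XZ153. The potassium levels of the study were 0.01 mM and 1 mM, but the labels do not say which level either library came from, nor how many plants were pooled. With 1 library per cultivar there was no replicate, no difference between the cultivars was tested, and the sequencing depth of both libraries is unknown.

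Auxin is a plant hormone that steers growth and organ formation. It is perceived by F-box receptors of the TIR1 and AFB type, which mark AUX/IAA repressors for destruction and so release auxin response factors, the transcription factors that turn auxin-responsive genes on or off. In Arabidopsis and rice, miR393 is known to cut the transcripts of the receptors, and miR167 those of auxin response factors of the ARF6 and ARF8 type. The lists name targets only by barley transcript IDs, which were not paired with gene names here, so no target below is called a receptor or a response factor, and positions are bases of the listed transcript.

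The small RNA names came from several plants, with ata for Aegilops tauschii, osa for rice, csi for sweet orange, gma for soybean and mes for cassava. The 8 miR393 names held 5 different seeds, the bases 2 to 8 that lead target pairing, and the 17 miR167 names held 9. The sequences behind the sites described first are given 5′ to 3′ with the seed in capitals. They include names whose sites were listed but not supported, shown because their targets match or nearly match those of supported genes, or because their pairing was among the best.
ata-miR393-5p: uUCCAAAGggaucgcauugau
csi-miR393b-5p_R+1_1ss22CT: uUCCAAAGggaucgcauugauuu
osa-miR393a_R+1_1ss9GT: uCCAAAGGuaucgcauugaucc
ata-miR167a-5p: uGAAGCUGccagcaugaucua
gma-miR167e: uGAAGCUGccagcaugaucuu
ata-miR167e-3p: gGUCAUGCugcggcagccucacu
ata-miR167f-3p_L-1R+1: aGAUCAUGcugcagcuucauu
The sweet orange name equalled ata-miR393-5p at 21 of 21 bases and ran on past its end. The rice variant began at base 2 of ata-miR393-5p and equalled it at 19 of 20 bases, with the substitution G9U, counted from the 5′ end of the rice variant. An RNA that starts 1 base later points to a cut 1 base earlier on the target. All 7 miR167 names without an arm or of the 5p arm shared the seed GAAGCUG and their first 18 bases, so their records are not independent of each other.

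Target stretches of these names, supported or not, follow, read from the deposited alignments, 5′ to 3′ along the transcript. Capitals mark target bases that the alignment left unpaired.
HORVU1Hr1G021550 with ata-miR393-5p: GAcaaugcgaucccuuuggaU
HORVU2Hr1G070800 with ata-miR393-5p: GAcaaugcgaucccuuuggaU
HORVU1Hr1G021550 with the rice miR393a variant: ggaGAcaaugcgauCccuuugga
HORVU6Hr1G038740 with the sweet orange name: UaguugaugGgaucccuuuggaG
HORVU7Hr1G106280 with gma-miR167e: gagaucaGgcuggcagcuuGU
HORVU2Hr1G121110 with ata-miR167a-5p: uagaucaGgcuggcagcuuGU
HORVU5Hr1G009650 with gma-miR167e: aagaucaGgcuggcagcuuGU
HORVU4Hr1G085960 with ata-miR167e-3p: CguggggcugcugcagcuggcG
HORVU4Hr1G027260 with ata-miR167f-3p: CgugaggcugcagAcaugaucA
The miR393 target was identical in HORVU1Hr1G021550 and HORVU2Hr1G070800 at 21 of 21 bases. The miR167 target of HORVU7Hr1G106280, HORVU2Hr1G121110 and HORVU5Hr1G009650 was identical from its second base onward.

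Each record carries a category and a p-value from the authors' target caller. Category 0 is a transcript's single highest position, category 1 shares the highest count with another position, category 2 lies above the transcript's average, category 3 holds more than 1 read at or below the average, and category 4 is a single read. A record is called supported here when it has category 0 to 2 and a deposited p-value of at most 0.05, without adjustment for the number of records. Isoforms of a gene repeat the same stretch of RNA, so genes were counted once per family. In ZD9, miR393 had a supported site on 1 of 20 genes (5%, exact 95% interval 0.127 to 24.9%, counting error only). Of all 7130 family and gene pairs of that list, 0.337% were supported. The miR393 share in ZD9 rests on 1 gene, and its interval held the share of all pairs. In XZ153, miR393 had a supported site on 2 of 37 genes (5.41%, interval 0.661 to 18.2%), beside 0.615% of all 22608 pairs. The lower end of that interval lay just above the share of all pairs. miR167 had a supported site on 0 of 83 genes in ZD9, which allows a share of up to 4.35%, and on 3 of 267 genes in XZ153 (1.12%, interval 0.232 to 3.25%). The miR167 share in XZ153 was near that of the whole list, and its interval held it. Counted as records, 5 of 42 miR393 records in ZD9 and 7 of 56 in XZ153 were supported, where 0.695% of all records in ZD9 and 0.675% in XZ153 were.

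The values of the ZD9 list ended at the transcript HORVU2Hr1G036110.5, and 17 of its miR167 records, which lie beyond it, carried none. Values were thus at hand for 159 miR167 and 42 miR393 records in ZD9. In the range of transcripts that both lists cover, XZ153 had 1 supported miR393 gene of 12 and 0 supported miR167 genes of 44, beside 0.755% of all pairs in that range. The miR393 share there rests on 1 gene, and its interval, 0.211 to 38.5%, held the share of all pairs. Counted as records there, 1 of 19 for miR393 and 0 of 63 for miR167 were supported, beside 0.91% of all 8350 records.

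The gene supported for miR393 in both cultivars was HORVU1Hr1G021550, through a pair of neighbouring positions on 3 of its 4 isoforms in ZD9, with the upstream position named for the rice variant and the next base named for ata-miR393-5p or the sweet orange name. In ZD9, isoform 4 held 3 reads at position 1717 (category 1, deposited p of 0.000455) and 3 reads at position 1718 (category 1, deposited p of 0.00159), and these were its joint highest positions. Isoform 3 held 5 reads at position 767 (category 2, deposited p of 0.0124) and 1 read at position 768 (category 4, deposited p of 0.00838). Isoform 1 held 3 reads at position 4325 (category 2, deposited p of 0.00743) and 1 read at position 4326 (category 4, deposited p of 0.0412). The upstream position therefore had more reads on isoforms 1 and 3 and the same number on isoform 4. Isoforms repeat the same stretch of RNA in 1 library, so they are not repeated measurements of the cut. On isoform 2 only position 1708, the base opposite base 10 of the sweet orange name, was listed, with 2 reads (category 2, deposited p of 0.00248). All these counts were low, beside a highest count of 346 reads for any record of the ZD9 list, though the median record of that list held 1 read.

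In XZ153 the same gene was listed on isoform 4 only. Position 1718 was in category 2 (deposited p of 0.00568) and position 1717 in category 4 (deposited p of 0.00858), so the downstream base had the better category there, whereas both bases shared category 1 in ZD9. Read counts are given here for ZD9 alone, since no read column was used for XZ153. The records of other names on this gene were 6 in ZD9, with a lowest deposited p of 0.641, and 3 in XZ153, with a lowest of 0.284.

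The second gene with a supported miR393 site, HORVU2Hr1G070800, was listed in XZ153 and lies past the end of the ZD9 values, so ZD9 gives no measurement of it. The upstream position, named for the rice variant, was category 0 on isoform 1 at position 2485 (deposited p of 0.00868) and on isoform 2 at position 1381 (deposited p of 0.00883), and category 1 on isoform 3 at position 2489 (deposited p of 0.0126). The next base was category 2 on all 3 isoforms, with a deposited p of 0.00163 at position 2486, 0.00325 at position 1382 and 0.00244 at position 2490. The upstream base thus had the better category on each isoform, and the downstream base the lower p-value. Here too the isoforms share the stretch and are not repeated measurements of the cut. The p-value also reads the pairing, and the energy of the site as a ratio to that of a perfect duplex was 0.941 for ata-miR393-5p and 0.896 for the sweet orange name, against 0.702 for the rice variant on HORVU2Hr1G070800 and 0.775 on HORVU1Hr1G021550. The rice variant left its base 9 unpaired on both genes, while bases 10 and 11, between which the cut falls, were paired.

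**Figure D1:**
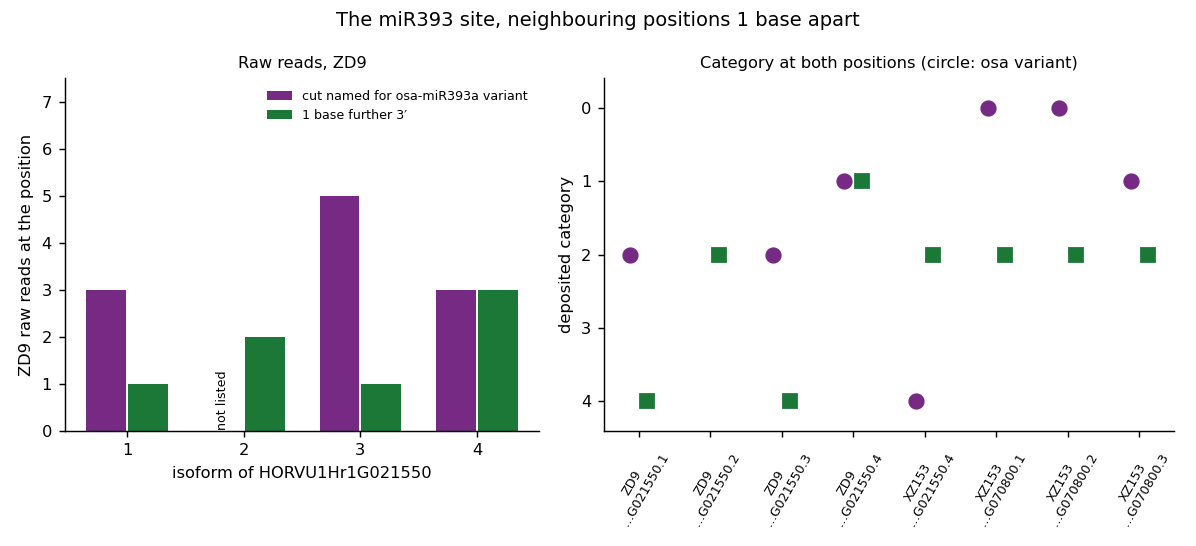
Left, ZD9 raw reads (y axis) at the pair of neighbouring miR393 positions on each isoform of HORVU1Hr1G021550 (x axis), purple for the position named for the rice variant and green for the next base. Right, the deposited category (y axis, 0 at the top) of both positions per library and isoform (x axis), with ZD9 left of XZ153. The purple position had 5 reads on isoform 3 in ZD9 and category 0 on isoforms 1 and 2 of HORVU2Hr1G070800 in XZ153.

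Of the other miR393 targets with a 5p-type name, HORVU6Hr1G038740 in XZ153 came closest. Its isoform 2 had a single read (category 4) at position 567 with the sweet orange name, a mismatch penalty (Allen score, lower is better paired) of 4.5 and a deposited p of 0.0380. Its target equalled that of HORVU1Hr1G021550 at 17 of 23 bases. The Allen score was 3 for ata-miR393-5p, 4 for the rice variant and 5 for the sweet orange name on HORVU1Hr1G021550 and HORVU2Hr1G070800. In ZD9, HORVU2Hr1G026340 had 2 reads with the rice variant (category 3, Allen score 6, deposited p of 0.449). HORVU1Hr1G068440 had 3 reads with ata-miR393-5p on isoform 2, but in category 3, with an Allen score of 7.5 and a deposited p of 0.185. Among miR393 records with an Allen score of at most 5 and a 5p-type name, 5 of 7 in ZD9 were supported, all on 1 gene. In XZ153, 7 of 9 were supported, on 2 of the 3 genes with such records. Of all records with such a score, 5.98% were supported in ZD9 and 5.68% in XZ153. For miR167 with a 5p-type name, XZ153 had 14 such records on 5 genes. Of these, 3 were supported, all isoforms of 1 gene, and ZD9 had 0 such records. The deposited p-value itself falls with better pairing energy, so support and pairing are not independent measures.

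The most reads of any miR393 record in ZD9 stood at a site of the opposite arm. HORVU2Hr1G005530, aligned with an ata-miR393-3p variant, had 7 reads on isoform 2 at position 417 (category 2, Allen score 8.5, deposited p of 0.520). Its isoform 1 had 2 reads (category 3, deposited p of 0.255), and HORVU2Hr1G005600 had 4 reads with the same name (category 2, deposited p of 0.521). The record with the most reads was thus not a supported one, and the supported miR393 records in ZD9 held 2 to 5 reads.

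For miR167, a single target stretch with a shared core of 20 bases occurred in XZ153 on 4 genes and 13 records, with the names ata-miR167a-5p and gma-miR167e. All 4 genes lie past the end of the ZD9 values, and no ZD9 record with values held the core. HORVU7Hr1G106280 had 9 of the 13 records, and gave category 0 on isoform 1 at position 3609 (deposited p of 0.00106), isoform 5 at position 2357 (deposited p of 0.00129) and isoform 6 at position 2449 (deposited p of 0.00121). Its other 6 isoforms had 1 read each (category 4), with p-values of 0.0504 to 0.106. The category thus varied between isoforms of this gene while the target bases and the small RNA seed were the same.

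The same stretch on the other 3 genes met single reads. HORVU2Hr1G121110 had a deposited p of 0.0255 on isoform 32 at position 2360 with an Allen score of 4. HORVU6Hr1G026730 had a deposited p of 0.136 on isoform 19 and 0.158 on isoform 31, and HORVU5Hr1G009650 had a deposited p of 0.254 on isoform 20 at position 3334. The alignments left bases 1, 2 and 14 of the small RNA unpaired on all 4 genes, as the capitals show for the 3 genes with a printed target. With ata-miR167a-5p, base 21 was unpaired too on HORVU6Hr1G026730 and HORVU7Hr1G106280. Of these 4 genes, category 0 was reached on HORVU7Hr1G106280 alone.

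Another miR167 gene supported in XZ153 paired less well by Allen score. HORVU4Hr1G085960, aligned with ata-miR167e-3p at an Allen score of 6.5, was category 0 on isoform 9 at position 669 (deposited p of 0.000834) and category 4 on isoform 5 at position 910 (deposited p of 0.0545). On HORVU7Hr1G106280 and HORVU4Hr1G085960 alike, the supported records were in category 0 and other isoforms had the same site in category 4.

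HORVU4Hr1G027260 came nearest among the remaining miR167 genes of XZ153. With ata-miR167f-3p it had an Allen score of 5 and an energy ratio of 0.884, and gave a deposited p of 0.00412 on isoform 7 at position 697 and a deposited p of 0.00443 on isoform 11 at position 283. Both were in category 3, outside the categories counted as supported, while isoform 1 had a single read at position 3583 (deposited p of 0.0463). This gene held 149 records in all over 20 isoforms, with names from 24 families besides miR167. Isoforms repeat the same stretch of RNA, so distinct positions may be fewer and were not counted.

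**Figure D2:**
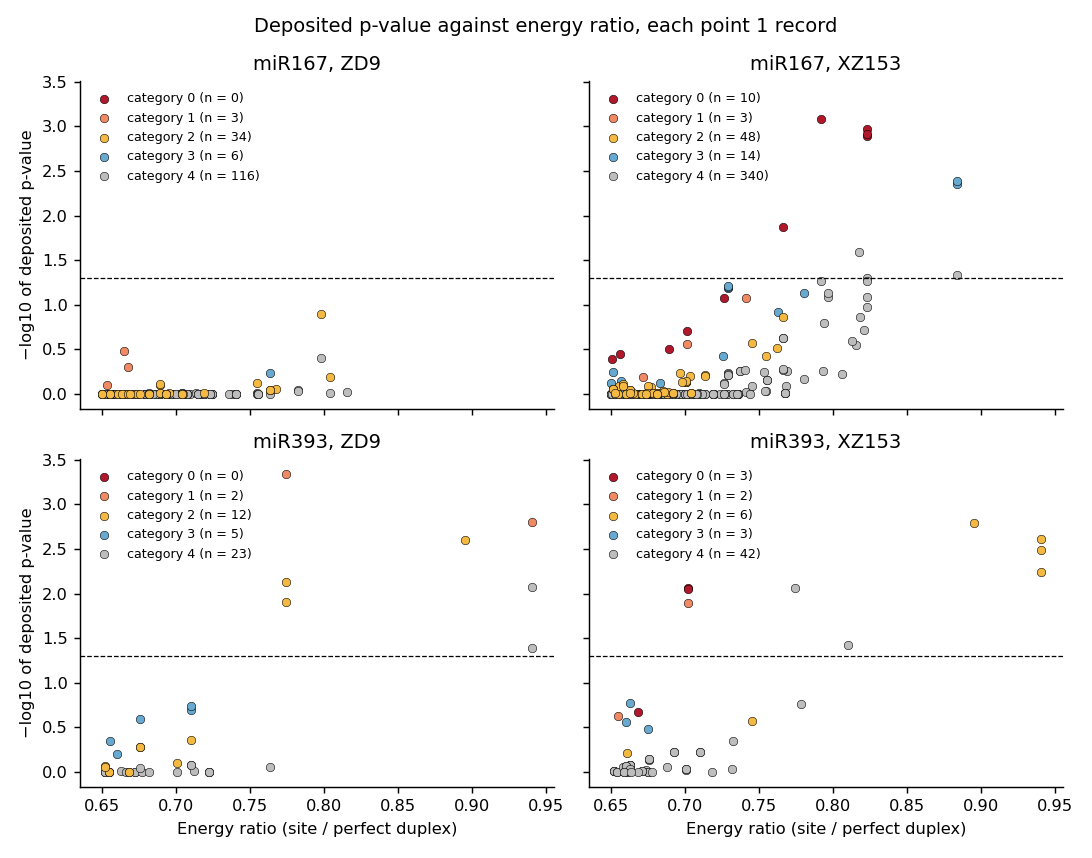
The −log10 of the deposited p-value (y axis) against the energy ratio of the site (x axis, 1 would be a perfect duplex), 1 point per record, coloured by category, with miR167 above, miR393 below, ZD9 on the left and XZ153 on the right. The dashed line marks a p-value of 0.05, and in ZD9 no miR167 record lies above it, while 7 miR393 records do.

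No member in ZD9 reached category 0, a class that held 1.7% of all ZD9 records with values. In XZ153, 10 of 415 miR167 records and 3 of 56 miR393 records did, where the whole list had 1.49%. In the range that both lists cover, each family had 1 category 0 record in XZ153, of 63 for miR167 and of 19 for miR393, beside 1.4% of all records there. The category 0 records without support had p-values of 0.0838 and more. For miR167 these were HORVU4Hr1G007000 (deposited p of 0.0838), HORVU4Hr1G088900 (deposited p of 0.196), HORVU6Hr1G029240 (deposited p of 0.314), HORVU1Hr1G079380 (deposited p of 0.356) and HORVU5Hr1G120240 (deposited p of 0.411). For miR393 it was HORVU1Hr1G085470 (deposited p of 0.215), aligned with a rapeseed hairpin name. That gene had 4 reads on isoform 1 and 5 reads on isoform 3 in ZD9, both in category 2 and both with p near 1.

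Single reads made up most records of both families. In ZD9, 73.0% of miR167 records and 54.8% of miR393 records were in category 4, against 66.2% of all records. In XZ153, 81.9% of miR167 records and 75% of miR393 records were, against 73.4%, and in the range that both lists cover these shares were 79.4% and 73.7%, against 73.2%. Deposited p-values above 0.5 were found for 155 of 159 miR167 and 30 of 42 miR393 records in ZD9, and for 375 of 415 miR167 and 39 of 56 miR393 records in XZ153. In ZD9 the highest p of a supported record was 0.0124, and the lowest p of an unsupported record in categories 0 to 2 was 0.128 (HORVU2Hr1G036050, miR167).

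**Figure D3:**
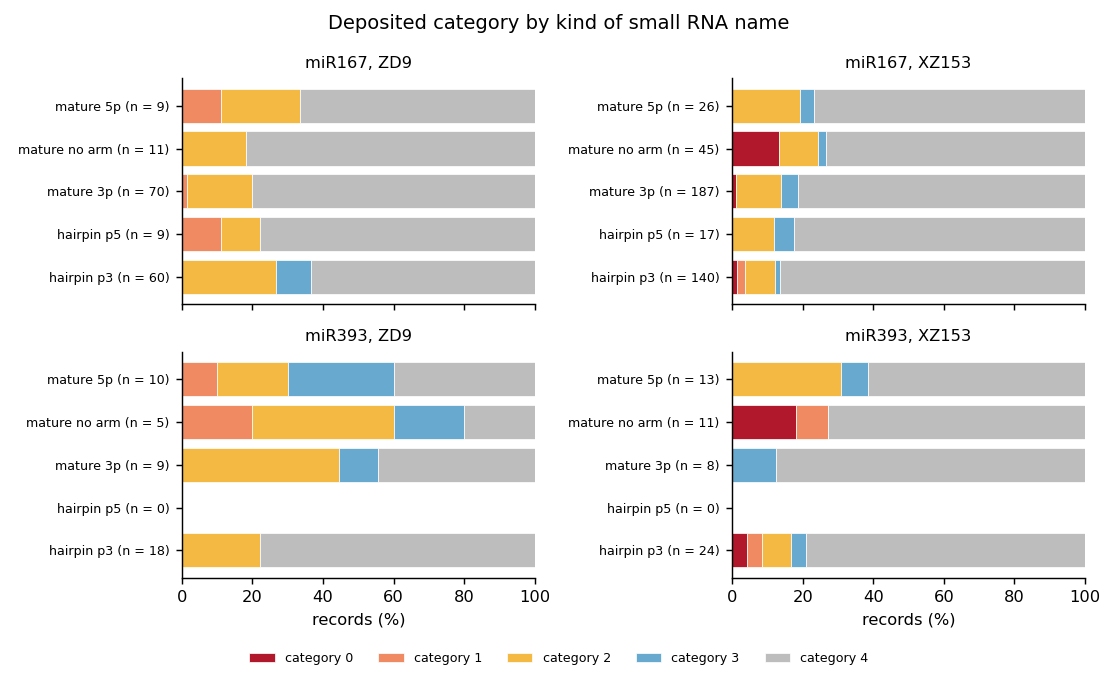
Share of records (x axis, percent) in each deposited category, by kind of small RNA name (y axis, n records), with miR167 above, miR393 below, ZD9 on the left and XZ153 on the right. Category 0, in dark red, is missing from both ZD9 panels, and category 4, in grey, fills 81.9% of all miR167 records in XZ153.

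In ZD9 the miR167 genes with the most reads at a site had Allen scores of 5.5 and more at those sites, and the median over all miR167 records was 8.5. HORVU2Hr1G025530 had 8 reads at a site of the cassava hairpin name mes-MIR167c (Allen score 9.5), with a p-value of 1.0. HORVU1Hr1G045520 had 1 to 6 reads on its isoforms with the same hairpin at Allen scores of 5.5 and 6, and a lowest p-value of 0.985. HORVU1Hr1G064530 had 5 reads with ata-miR167d-3p at an Allen score of 7.5, with a p-value near 1. With a 5p name, HORVU2Hr1G019650 had 4 reads on isoform 1 (deposited p of 0.793) and 3 on isoform 2 (deposited p of 0.782) at an Allen score of 6.5, and the lowest p of any 5p name was 0.329, for 3 reads on HORVU0Hr1G022280. Of the 159 miR167 records in ZD9, 116 held 1 read, 26 held 2 and 17 held 3 or more, and of the 42 miR393 records 23 held 1, 7 held 2 and 12 held 3 or more.

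The hairpin names stand for stretches of a precursor other than the annotated mature microRNA, though a stretch may overlap it. In ZD9, 0 of 69 miR167 and 0 of 18 miR393 hairpin records were supported, and in XZ153 0 of 157 and 0 of 24. Of all records, 0.695% in ZD9 and 0.675% in XZ153 were supported. At such shares, counts of 0 do not set the hairpin names apart from the whole lists. Some hairpin records paired well. In ZD9, 6 hairpin records of miR167 on the genes HORVU2Hr1G002710, HORVU1Hr1G053340 and HORVU1Hr1G045670 had an Allen score of at most 5, with p-values of 0.644 to 1.0. HORVU1Hr1G053340 and HORVU1Hr1G045670 held single reads, as did HORVU5Hr1G079470 in XZ153 with the cassava name at an Allen score of 4.5 (deposited p of 0.999). The best paired was HORVU2Hr1G002710, at an Allen score of 4 on isoform 3 with 1 read (deposited p of 0.943), while its isoform 6 had 2 reads (category 2, Allen score 4.5, deposited p of 0.644). Further ZD9 genes with low scores, HORVU1Hr1G080370 for miR167 and HORVU1Hr1G065910, HORVU0Hr1G039090 and HORVU1Hr1G082160 for miR393, were hairpin sites with Allen scores of 5.5 to 6.5 and a lowest deposited p of 0.795. The sequences below are the cassava hairpin names behind these miR167 sites, all 3 of them windows of 1 sequence of 19 bases, and a rice hairpin name shown for its overlap with a mature name.
mes-MIR167c-p3_1ss2GC: aCAAGGGUugauuuuacu
mes-MIR167c-p3_2ss1GC18AT: cAAGGGUUgauuuuacuu
mes-MIR167c-p3_2ss2GC19AT: aCAAGGGUugauuuuacuu
osa-MIR167a-p5: uGCCAGCAugaucuagcucug
The rice hairpin name began at base 7 of ata-miR167a-5p and shared a run of 15 bases with it, so it carried another seed over an overlapping sequence. For miR393 in XZ153, the hairpin names paired on HORVU5Hr1G102720 (deposited p of 0.455) and HORVU5Hr1G014170 (deposited p of 0.933) at an Allen score of 4.5, both with single reads.

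Pairing was also counted along the small RNA, by kind of name. Each combination of small RNA, target stretch and gene was counted once over both libraries. The lowest energy ratio of any record in either list was 0.65, so these shares describe only duplexes at or above that limit. The median ratios by kind of name were 0.663 to 0.706, so many duplexes lay near it. Bases 10 and 11, which flank the cut, were both paired in 18 of 18 miR393 duplexes with a 5p-type name and in 45 of 62 such miR167 duplexes (72.6%). They were both paired in 144 of 160 miR167 3p duplexes (90.0%) and in 113 of 141 miR167 hairpin duplexes (80.1%), and for miR393 in 5 of 5 3p duplexes and 30 of 31 hairpin duplexes. The whole seed was paired in 11 of 18 miR393 5p-type duplexes (61.1%) and in 16 of 62 miR167 5p-type duplexes (25.8%). It was paired in 69 of 160 miR167 3p duplexes (43.1%) and in 70 of 141 miR167 hairpin duplexes (49.6%), and for miR393 in 0 of 5 3p duplexes and 18 of 31 hairpin duplexes (58.1%). These shares were not tested against each other, since duplexes of 1 name share its sequence. A target stretch repeated on several genes also entered once per gene. With gma-miR167e, AGP50763, HORVU0Hr1G029790 and HORVU0Hr1G031270 had equal scores (Allen score 7.5, energy ratio 0.657), each with bases 1, 4 and 10 unpaired. In XZ153, HORVU0Hr1G026090, HORVU0Hr1G027620, HORVU5Hr1G064700, HORVU6Hr1G049260, HORVU7Hr1G088190 and HORVU7Hr1G091620 had the same scores with a name without an arm. Base 10 was paired in 52 of the 62 miR167 5p-type duplexes, so such repeats weigh on the share for bases 10 and 11. The duplexes are thus not independent, and the miR167 5p-type shares partly count repeats.

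**Figure D4:**
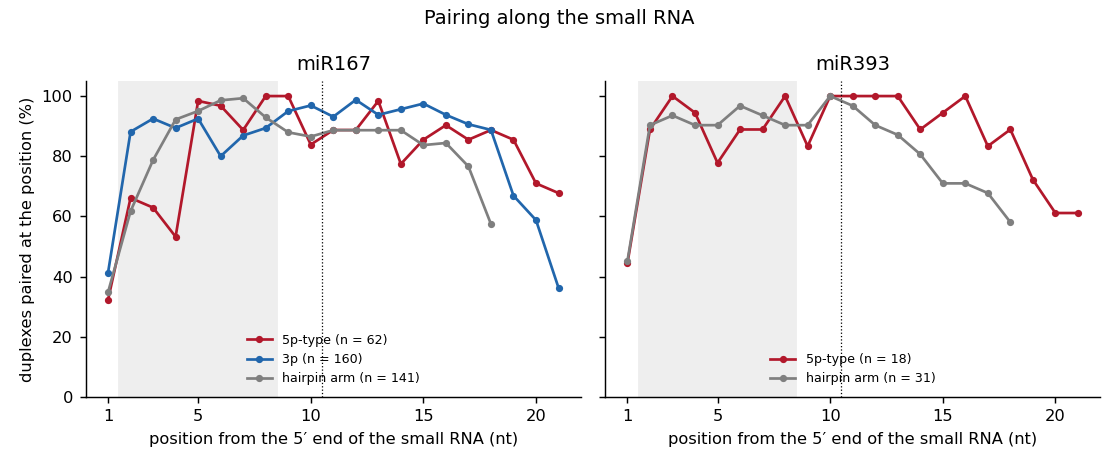
Share of duplexes paired (y axis, percent) at each position from the 5′ end of the small RNA (x axis, nt), for miR167 on the left and miR393 on the right, by kind of name. The grey band is the seed and the dotted line the cut. At bases 10 and 11 the miR393 5p-type line stays at 100%, in 18 of 18 duplexes, while the miR167 5p-type line lies lower. A target stretch repeated on several genes enters once per gene, and such repeats weigh on the miR167 5p-type line at base 10.

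Within a small RNA name and a category, the deposited p-value followed the energy ratio. The record with the higher ratio had the lower p in 571 of 571 record pairs of unequal ratio in ZD9 and in 5018 of 5018 in XZ153. This describes how the deposited p-value behaves and is no separate evidence of cutting. At an equal ratio it could still differ. With ata-miR393-5p in category 4 at a ratio of 0.941, the deposited p in ZD9 was 0.0412 on isoform 1 of HORVU1Hr1G021550 and 0.00838 on isoform 3. The Allen score ordered the p-values in 338 of 520 pairs in ZD9 (65.0%) and in 3090 of 4804 in XZ153 (64.3%).

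Cuts listed in both cultivars were counted within the transcripts that both lists cover, as the same family and gene with target stretches sharing 14 bases. For miR393 there were 8, which was 40.0% of the 20 cuts in ZD9 (interval 19.1 to 63.9%) and 66.7% of the 12 in XZ153 (interval 34.9 to 90.1%). For miR167 there were 19, which was 22.1% of the 86 cuts in ZD9 (interval 13.9 to 32.3%) and 42.2% of the 45 in XZ153 (interval 27.7 to 57.8%). Over all small RNA names, 2263 cuts were in both lists, which was 29.6% of the 7657 in ZD9 and 44.5% of the 5080 in XZ153, and these shares lie within the intervals of both families. The miR393 cuts also listed in XZ153 had a median of 3.5 reads in ZD9, against 1 read for those listed in ZD9 only. For miR167 the median was 1 read in both sets. A cut in both lists need not be a supported one, since of these cuts only that of HORVU1Hr1G021550 was supported in both.

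The other microRNA families tied to auxin signalling were counted in the same way. miR160, which in Arabidopsis cuts transcripts of auxin response factors of the ARF10, ARF16 and ARF17 type, had a supported site on 1 of 44 genes in ZD9 (lowest deposited p of 0.000675) and on 8 of 136 in XZ153 (5.88%, interval 2.57 to 11.3%, lowest deposited p of 7.58e-05). The miR160 share of 2.27% in ZD9 rests on 1 gene, and its interval, from 0.0575%, held the share of all pairs there. miR390 starts the small RNAs that act on ARF2, ARF3 and ARF4. It had a supported site on 0 of 19 genes in ZD9 (lowest deposited p of 0.687), which allows a share of up to 17.6%. In XZ153 it had one on 0 of 53 (lowest deposited p of 0.0861), which allows up to 6.72%. Of all pairs, 0.337% in ZD9 and 0.615% in XZ153 were supported. At such shares, counts of 0 do not set miR390 apart from the whole lists. The families differ in how many names and genes are listed, and the differences between them were not tested.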

How the data were processed

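Each list holds 1 small RNA name per transcript position, so a position with several matching names shows 1 of them. Per the file headers, the deposited lists are CleaveLand output of the authors, with a raw read count per site (used for ZD9), an Allen score of mismatches and a free energy score, the energy ratio to a perfect duplex as a fraction, and a category and an unadjusted p-value. The labels' protocols give poly(A) selection and single-end reads of 50 nt. The sources used here give no genome coordinates, build or library depth for these lists. In both lists some lines had been emptied and were not analysed here. Members were found by name, isoforms merged to genes, and intervals computed as exact Clopper-Pearson 95% intervals (Python 3.11.15, pandas 2.3.3, NumPy 2.4.6, SciPy 1.17.1, matplotlib 3.10.9), which cover counting error only. The scripts were tested on simulated data. No test of any difference was run, since there was 1 library per cultivar. Genes were named if supported, in category 0, among the 5 lowest Allen scores, or among the 5 highest ZD9 read counts of their family, up to 15 per family and library, except 1 supported miR167 gene of XZ153, which is not reported here. The other genes with values here were chosen after their values were seen. The members and lists were chosen with earlier results of these data known. Alternatives covered the p limit, categories, kinds of name, pairing, isoforms and the shared range.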

Additional observations from a re-analysis of the deposited data

How the results depend on the processing

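Of 68 alternative values, 37 stayed within 1.5 times their main value or within its interval and 31 did not. All are counts or shares, which have no direction to change. Some could not move, since narrowing a count of 0 leaves 0 and all ZD9 values lie in the shared range. For supported genes, dropping the p limit gave 26 in ZD9 and 46 in XZ153 for miR167, and 8 and 6 for miR393, so the p limit removed most of them. Category 0 only gave 0 miR393 genes in ZD9 and 1 in XZ153. An Allen score of at most 4 left 0 miR167 genes in XZ153. Counting records gave 5 for miR167 in XZ153, and 5 in ZD9 and 7 in XZ153 for miR393. The shared range gave 0 for miR167 and 1 for miR393 in XZ153. Admitting categories 0 to 4, an alternative chosen after seeing the data, gave 5 miR167 genes in XZ153. For listed genes, mature names only gave 171 for miR167 in XZ153, and 9 in ZD9 and 15 in XZ153 for miR393. An Allen score of at most 4 left 1 in ZD9 and 3 in XZ153 for miR167, and 1 and 2 for miR393. Records numbered 159 and 415 for miR167, and 42 and 56 for miR393, and the shared range held 44 miR167 and 12 miR393 genes in XZ153. Reads of the highest ZD9 cut, 8 for miR167 and 7 for miR393, became 33 and 18 when summed over isoforms, which may count 1 read several times. Counting isoform positions in place of cuts, 10.7% of the miR167 positions in ZD9 and 27.0% of those in XZ153 were in both lists. These shares are of listed positions, so their base differs from that of cuts. Mature names only made the miR393 cuts in both lists 66.7% of ZD9. These shifts follow from the records each alternative adds or removes, or from its unit of counting. No paired analysis was possible because there was 1 library per cultivar, and no library could be left out. Depth is unknown, so an unlisted site shows no lack of cutting, and most members rest on 1 read.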

Other observations

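HORVU0Hr1G001270 was the 1 gene of ZD9 listed for both families, among 83 miR167 and 20 miR393 genes there. In XZ153 0 genes were, among 267 and 37. The ZD9 values end early, and the share of genes listed for several families over the whole lists was not counted, so these overlaps are not compared. In ZD9 the sites of HORVU0Hr1G001270, with ata-miR167f-3p and ata-miR393-5p, held 1 or 3 reads each. Their deposited p-values ran from 0.444 for miR393 on isoform 3 to 0.990 for miR167 on isoform 1. In XZ153 the gene was listed for miR167 alone, on isoform 4 in category 2 with a deposited p of 0.372, against 0.758 on the same isoform and position in ZD9.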
